A study of Homo sapiens with 9 samples.

Results

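Sprouty and SPRED proteins are feedback inhibitors of receptor tyrosine kinase signalling. The 7 human genes, SPRY1, SPRY2, SPRY3, SPRY4, SPRED1, SPRED2 and SPRED3, were taken by symbol from a table of 62700 genes, and each had 1 row. Their RNA was followed in 9 libraries of 293T cells, a human embryonic kidney line that carries the SV40 large T antigen and takes up plasmids readily. Cells of 1 line were transiently transfected, by plating them onto Fugene 6 complexes, with a plasmid without insert (empty vector), with HA-tagged CIC::DUX4, or with HA-tagged CIC(ex20)::NUTM1(ex6), called CIC::NUTM1 below. Each group had 3 libraries of polyA-selected RNA collected about 48 hours after transfection, and per the labels' protocols the replicates were transfected on separate days. The questions were which of the 7 genes these cells express without a fusion, and how each gene responds to each fusion.

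When a growth factor receptor activates RAS and ERK, transcription of several Sprouty and SPRED genes rises, and their proteins then dampen the same pathway. Sprouty proteins act near the receptor, in part through the adaptor GRB2 and the ubiquitin ligase CBL. SPRED proteins carry an EVH1 domain that binds neurofibromin (NF1), the RAS inactivator, and bring it to the membrane. CIC (capicua) is a DNA-binding repressor of many ERK-responsive genes, and in some sarcomas it is fused to DUX4 or NUTM1, which bring activating sequences.

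The libraries held 16970771 to 33655445 counts. Levels are CPM, a gene's count relative to its library's TMM-scaled total, and a gene was called when the edgeR quasi-likelihood test gave an adjusted p under 0.05 over the 17576 genes tested. All 7 genes were among those tested. Of 10 embryonic kidney markers, 9 were above 1 CPM in empty vector and PAX8 was at 0; their sum was 279 to 288 CPM there, 296 to 313 with CIC::DUX4 and 353 to 392 with CIC::NUTM1. The T cell marker CD3E was at 0 and the leukocyte marker PTPRC at 0.0195 CPM in empty vector. The 3 neuronal markers summed to 688 to 874 CPM in empty vector, 502 to 546 with CIC::DUX4 and 464 to 586 with CIC::NUTM1. The 4 blood cell markers summed to 1.20 to 3.17 CPM, 2.06 to 3.24 CPM and 3.73 to 6.00 CPM in the same order of groups. The 4 epithelial markers summed to 75.8 to 79.7 CPM, 82.2 to 122.6 CPM (highest in CIC::DUX4 replicate 1) and 66.9 to 79.7 CPM. Among them the keratin KRT8 was called higher with CIC::DUX4 than in empty vector (24.9 against 10.1 CPM, adjusted p = 0.0116) and lower with CIC::NUTM1 than with CIC::DUX4 (9.84 CPM, adjusted p = 0.0140). The 3 fibroblast markers summed to 31.7 to 35.9, 25.5 to 33.3 and 25.6 to 31.1 CPM, and both endothelial markers to at most 0.540 CPM in any library. The part of these marker shifts in the results was not tested. RNA of the fused genes is not examined here, and no check of the group labels against the plasmids was made.

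Promoter sequence is shown for 3 genes that span the range of responses found here: SPRY4, which went from no counts to abundant, SPRED3, the only one of the 7 with a CIC word in a window searched, and SPRY1, which moved least. The CIC octamer was searched as TGAATGAA, TGAATGGA, TCAATGAA or TCAATGGA on both strands, in RefSeq windows of 300 bases (250 before to 50 after an annotated start, GRCh38.p14). Each stretch below is the part upstream of a RefSeq start that lies in no GENCODE 29 exon of the gene. It is written 5′ to 3′ along the gene's strand, and capitals mark the octamer. The SPRY4 and SPRED3 starts used lie 2208 and 1370 bases inside the gene. The sequence before the GENCODE start of SPRY4 and of SPRED3 is therefore not shown.
SPRED3 (chr19:38389541-38389611, plus strand): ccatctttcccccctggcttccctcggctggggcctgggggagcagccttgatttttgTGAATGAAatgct
SPRY4 (chr5:142324418-142324497, minus strand): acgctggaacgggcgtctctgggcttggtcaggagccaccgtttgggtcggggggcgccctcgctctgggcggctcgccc
SPRY1 (chr4:123396545-123396794, plus strand): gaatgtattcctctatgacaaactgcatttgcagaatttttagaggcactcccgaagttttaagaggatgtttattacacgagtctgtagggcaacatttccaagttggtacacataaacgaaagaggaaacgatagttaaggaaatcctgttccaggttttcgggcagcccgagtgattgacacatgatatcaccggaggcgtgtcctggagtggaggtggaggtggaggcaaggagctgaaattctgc

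RefSeq windows were found for all 7 genes, 13 in number after the windows of the Y copy of SPRY3 were left out. The octamer occurred in 1 of them, against 1323 of 35116 windows of all genes (3.77%). That match, TGAATGAA at chr19:38389599-38389606, began 192 bases upstream of a SPRED3 start that lies 1370 bases inside the gene, and it fell in no annotated exon of the gene. The AP-1 heptamer (TGACTCA, or TGAGTCA on the other strand), which does not overlap the octamer, occurred in 2 of the 13 windows, 1 of SPRED2 and the same SPRED3 window, against 4.95% of all windows. GC content of the 13 windows ran from 39.3% to 76.3% with a median of 60.0%, and the median of all windows was 58.7%. The only windows of SPRY4 and SPRED1 lay inside the gene, around starts 2208 and 510 bases from its GENCODE start. Both windows of SPRED3 also lay inside the gene, around starts 276 and 1370 bases from its GENCODE start. The sequence before the GENCODE start of SPRY4, SPRED1 and SPRED3 was therefore not searched. A match describes letters in the window, not a bound site.

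In empty vector cells, 3 of the 7 genes made up most of the family's RNA, and SPRY4 had no counts. Compared per length, as CPM per kb of the gene's combined exons (mean ± SD, n = 3), SPRY2 stood at 7.14 ± 0.48, SPRY1 at 6.52 ± 0.64 and SPRED2 at 4.54 ± 0.32. The libraries of SPRY2 and SPRY1 overlapped, and with the length of the longest transcript in place of the combined exons their order turned, to 9.91 for SPRY1 and 8.01 for SPRY2. SPRED1 followed at 1.25 ± 0.02. SPRED3, at 0.360 ± 0.052, and SPRY3, at 0.315 ± 0.037, overlapped each other. The 7 genes thus covered a wide range before any fusion was present, and each family had low members.

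SPRY4 was the silent paralog. It had 0 counts in each empty vector library, where 3 counts would equal 0.172, 0.0878 and 0.120 CPM, the most that a count of 0 allows for. Such limits, and folds computed against them, cover counting error only.

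With CIC::DUX4, 6 of the 7 genes rose, 1 was not called and none fell. Of all genes tested, 6.96% were called higher and 1.27% lower in this comparison. In the same 6 genes every CIC::DUX4 library lay above every empty vector library, which held for 14.8% of all genes. With CIC::NUTM1, all 7 genes rose, against 11.5% of all genes called higher and 3.83% called lower, and all 7 had libraries apart from those of empty vector, against 18.2% of all genes; under library totals or upper quartile scaling SPRY1 was not called and 6 rose. The 7 genes had a median log2 fold change of 2.19 under CIC::DUX4 and 2.65 under CIC::NUTM1, where the medians of all genes were -0.0015 and -0.00086. Both comparisons used the same 3 empty vector libraries. In bulk RNA of transiently transfected cells, the share of cells that respond and the RNA per responding cell cannot be told apart.

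**Figure D1:**
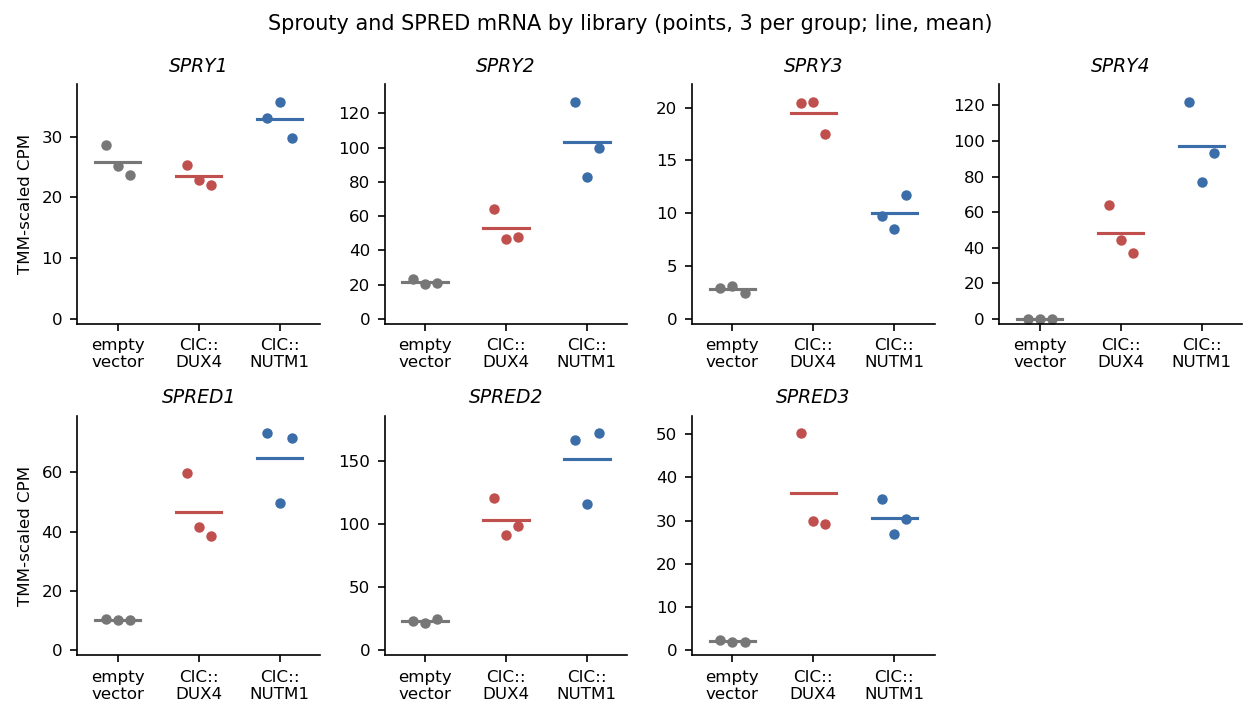
TMM-scaled CPM (vertical axis, linear, a scale for each gene) of the 7 genes in empty vector, CIC::DUX4 and CIC::NUTM1 libraries; each point is a library and each line the mean of 3. SPRY4 lies at 0 in empty vector, SPRY3 is highest with CIC::DUX4, and SPRY1 spans a narrow range in all groups.

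SPRY4 (ENSG00000187678, chr5:142310427-142326455, minus strand in GRCh38) encodes a Sprouty that restrains ERK signalling. Its counts were 0, 0 and 0 in empty vector, 1673, 927 and 634 with CIC::DUX4 and 2034, 2012 and 1800 with CIC::NUTM1. These equal 63.8, 44.4 and 37.3 CPM with CIC::DUX4 and 122, 77.0 and 93.3 CPM with CIC::NUTM1. Every library with a fusion was high, and none with empty vector held a read.
Set against 3 counts per empty vector library, SPRY4 was at least 383-fold higher with CIC::DUX4 (adjusted p = 0.00084) and at least 770-fold higher with CIC::NUTM1 (adjusted p = 0.00026). Its antisense gene SPRY4-AS1 overlaps it, and the use of strand in counting is not given in the sources used here. SPRY4-AS1 itself had 0 to 3 counts in any library.

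SPRY2 (ENSG00000136158, chr13:80335976-80340951, minus strand) encodes the Sprouty best known for binding CBL and GRB2. It was expressed in empty vector at 23.4, 20.6 and 21.2 CPM. It reached 64.1, 46.7 and 48.0 CPM with CIC::DUX4 and 126.7, 82.8 and 99.7 CPM with CIC::NUTM1. The 3 groups did not overlap, and the rise was graded from empty vector through CIC::DUX4 to CIC::NUTM1. The log2 fold change was 1.30 ± 0.16 (SE, adjusted p = 0.00018) with CIC::DUX4 and 2.25 ± 0.16 (adjusted p = 7.1e-07) with CIC::NUTM1, or 2.44-fold and 4.75-fold in the means.

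SPRY3 (ENSG00000168939) lies in the pseudoautosomal region and is the least studied Sprouty. The reference genome carries it at chrX:155767812-155782459 and at chrY:56954332-56968979, and reads do not tell these positions apart. Its empty vector libraries held 2.92, 3.13 and 2.48 CPM. They were followed by 20.5, 20.6 and 17.5 CPM with CIC::DUX4 and by 9.78, 8.49 and 11.7 CPM with CIC::NUTM1. The groups did not overlap, and CIC::DUX4 gave the higher level. The log2 fold change was 2.77 ± 0.17 (adjusted p = 3.44e-11), 6.85-fold in the means, with CIC::DUX4 and 1.80 ± 0.18 (adjusted p = 3.18e-08), 3.51-fold, with CIC::NUTM1.

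SPRY1 (ENSG00000164056, chr4:123396795-123403760, plus strand) encodes a Sprouty needed for normal kidney and ureter branching in mice. Its levels were 28.7, 25.1 and 23.8 CPM in empty vector libraries, 25.4, 22.9 and 22.1 CPM with CIC::DUX4 and 33.1, 35.7 and 29.8 CPM with CIC::NUTM1. Empty vector and CIC::DUX4 libraries overlapped, and the CIC::NUTM1 libraries were all higher, the lowest by a small margin. The log2 difference with CIC::DUX4 was -0.13 ± 0.11 (adjusted p = 0.565). With CIC::NUTM1 it was 0.35 ± 0.11 (adjusted p = 0.0256), 1.27-fold in the means.
That call was lost in 6 of 18 alternatives. The adjusted p was 0.0555 under library totals, 0.0518 under upper quartile factors, 0.091 without empty vector replicate 2, 0.147 without empty vector replicate 3, 0.0594 without CIC::NUTM1 replicate 1 and 0.108 without CIC::NUTM1 replicate 2.

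SPRED1 (ENSG00000166068, chr15:38252326-38357249, plus strand) recruits neurofibromin, and its loss causes Legius syndrome, a relative of neurofibromatosis. Its level was 10.5, 10.2 and 10.2 CPM in empty vector libraries, 59.7, 41.6 and 38.7 CPM with CIC::DUX4 and 73.2, 49.9 and 71.8 CPM with CIC::NUTM1. Both fusions lay far above empty vector, and the libraries of the fusions overlapped each other. The log2 fold change was 2.19 ± 0.19 (adjusted p = 6.61e-06), 4.52-fold in the means, with CIC::DUX4 and 2.65 ± 0.19 (adjusted p = 6.28e-07), 6.30-fold, with CIC::NUTM1.

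SPRED2 (ENSG00000198369, chr2:65310851-65432637, minus strand), a broadly expressed SPRED, held 23.3, 21.8 and 25.1 CPM in empty vector. It rose to 120.8, 91.5 and 98.1 CPM with CIC::DUX4 and to 166.9, 116.2 and 171.8 CPM with CIC::NUTM1. As for SPRED1, the fusion libraries were all high and overlapped through CIC::NUTM1 replicate 2. The log2 fold change was 2.15 ± 0.16 (adjusted p = 4.14e-06), 4.42-fold in the means, and 2.696 ± 0.160 (adjusted p = 3.56e-07), 6.48-fold. The intronic gene ENSG00000232693, inside SPRED2 on the same strand, had 0 to 2 counts in any library.

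SPRED3 (ENSG00000188766, chr19:38388421-38399587, plus strand) encodes the SPRED that lacks a working KIT-binding domain. It was low in empty vector, at 2.46, 1.99 and 1.88 CPM, and reached 50.2, 29.9 and 29.1 CPM with CIC::DUX4 and 34.9, 26.8 and 30.3 CPM with CIC::NUTM1. CIC::DUX4 replicate 1 stood above the other libraries, and the rest of both fusions lay close together. The log2 fold change was 4.13 ± 0.23 (adjusted p = 6.83e-09), 17.2-fold in the means, with CIC::DUX4 and 3.88 ± 0.23 (adjusted p = 7.89e-09), 14.5-fold, with CIC::NUTM1. Among the 6 genes with counts in every library, SPRED3 had the highest fold with each fusion, SPRY1 the lowest.

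**Figure D2:**
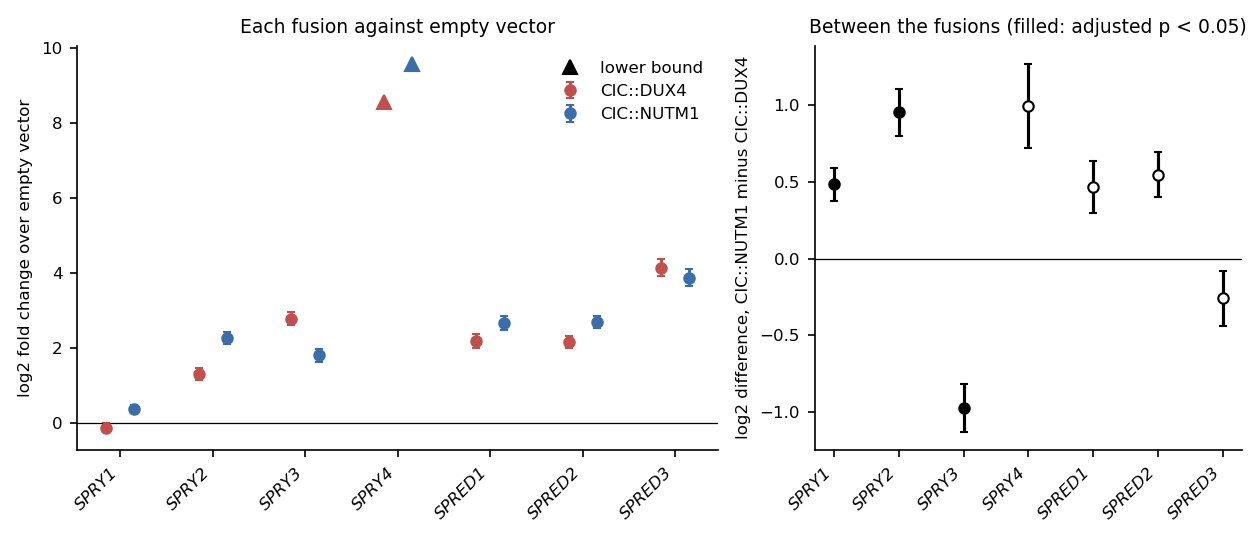
Left, log2 fold change over empty vector with its standard error for CIC::DUX4 (red) and CIC::NUTM1 (blue), with triangles for the SPRY4 lower bounds; right, log2 difference of CIC::NUTM1 minus CIC::DUX4, filled where the adjusted p was under 0.05. SPRY1 lies near 0 on the left, and SPRY3 alone is filled below 0 on the right.

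Set directly against each other, the fusions differed in 3 of the 7 genes: SPRY1 and SPRY2 were higher with CIC::NUTM1 and SPRY3 was higher with CIC::DUX4. Of all genes tested, 4.97% were called higher and 1.64% lower with CIC::NUTM1. The log2 difference was 0.95 ± 0.15 for SPRY2 (adjusted p = 0.0021) and 0.49 ± 0.11 for SPRY1 (adjusted p = 0.0053). For SPRY3 it was -0.97 ± 0.16 (adjusted p = 0.00016), so that its mean level with CIC::NUTM1 was 0.513 of that with CIC::DUX4. At a threshold of a log2 difference of at least 1, 0 of these 3 calls were left. At an adjusted p under 0.05 alone, all 3 held in each of 18 alternatives of scaling, filter, test, design and libraries, with adjusted p up to 0.034 for SPRY1, 0.020 for SPRY2 and 0.0023 for SPRY3.

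The other 4 genes did not pass, and their differences ran both ways. The calls on 3 of them, SPRY4, SPRED2 and SPRED1, changed with the processing. SPRY4 libraries did not overlap and were higher with CIC::NUTM1, by 0.99 ± 0.27 (adjusted p = 0.140). With SPRY1 and SPRY2 this made 3 genes with all CIC::NUTM1 libraries higher, against 12.6% of all genes, and SPRY3 was the 1 gene with all lower, against 9.36%. SPRED2 differed by 0.55 ± 0.15 (adjusted p = 0.052), SPRED1 by 0.47 ± 0.17 (adjusted p = 0.152) and SPRED3 by -0.26 ± 0.18 (adjusted p = 0.504). Without CIC::DUX4 replicate 1, SPRY4 (adjusted p = 0.0030), SPRED2 (0.0076) and SPRED1 (0.0019) passed and SPRED3 turned to 0.052 (adjusted p = 0.900). Without CIC::NUTM1 replicate 2, SPRED2 (adjusted p = 1.2e-05) and SPRED1 (0.0045) passed. SPRY4 and SPRED2 also passed under DESeq2 (adjusted p = 0.0195 and 0.00069) and limma-trend (0.0021 and 0.0312), and SPRED2 and SPRED1 with no filter on low counts (2.2e-09 and 0.000103). The median of the 7 log2 differences was 0.49, and that of all genes -0.0053.

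Each of the 7 genes was set against its group mean in each library. The deviations of a gene within a group sum to 0, so the libraries of a group are not independent here. In CIC::DUX4 replicate 1 all 7 genes lay above their group mean, by 0.075 to 0.509 on the log2 scale. They all lay below it in CIC::DUX4 replicate 3, and 6 of 7 did in CIC::DUX4 replicate 2. In CIC::NUTM1 replicate 1, 6 of 7 lay above. In CIC::NUTM1 replicate 2, 6 of 7 lay below, from -0.362 upwards, and SPRY1 lay above, by 0.125. CIC::NUTM1 replicate 3 was divided, with 3 of 7 above. The 6 responsive genes ETV1, ETV4, ETV5, DUSP4, DUSP6 and ERRFI1, added after the levels were seen, were likewise all higher in CIC::DUX4 replicate 1 (0.239 to 0.316) and all lower in CIC::NUTM1 replicate 2 (-0.547 to -0.327). All 6 also lay above in CIC::NUTM1 replicate 3, where the 7 genes were divided. In empty vector, where SPRY4 had no reads and no deviation, 5 of 7 lay above in replicate 1 and 1 of 7 in each of the others. The 6 responsive genes had 4, 4 and 2 above in empty vector replicates 1, 2 and 3. Libraries numbered 1 thus had 5 to 7 of the 7 genes above their group mean in all 3 groups, and those numbered 2 had 1.

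**Figure D3:**
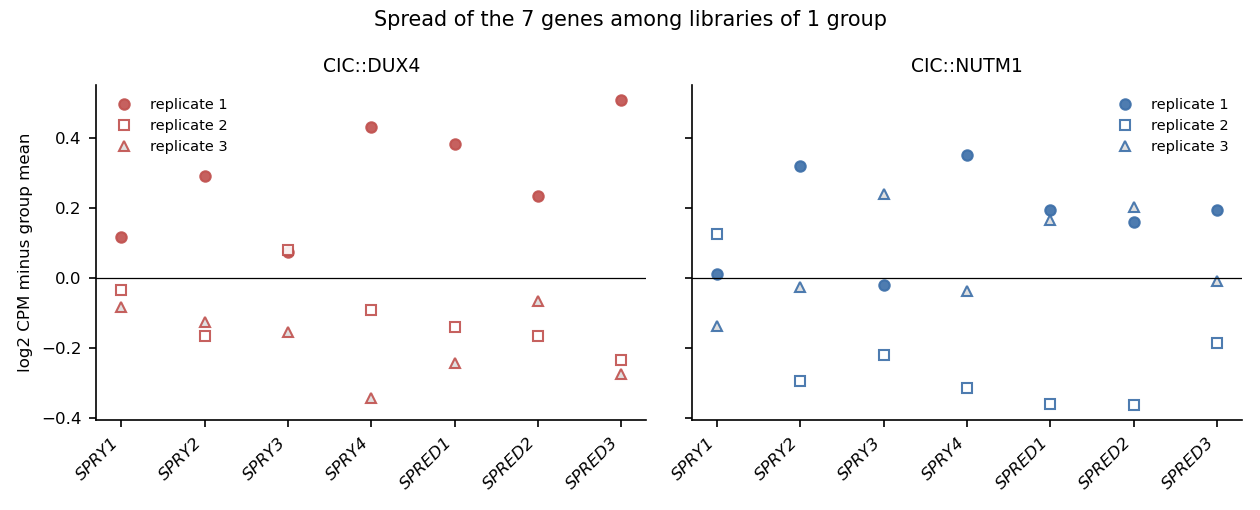
Log2 CPM of each gene minus its group mean (vertical axis) in the 3 libraries of CIC::DUX4 (left, red) and CIC::NUTM1 (right, blue), with a marker shape per replicate. The filled circles of CIC::DUX4 replicate 1 are above 0 for all 7 genes, and the squares of CIC::NUTM1 replicate 2 are below 0 for 6.

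The family's summed level was higher with each fusion, and its make-up differed. Summed over the 7 genes, CPM per kb was 20.1 ± 1.2 in empty vector, 64.8 ± 12.0 with CIC::DUX4 and 100.7 ± 17.5 with CIC::NUTM1 (SD, n = 3), or 3.22-fold and 5.00-fold the empty vector level. The groups did not overlap, with libraries at 19.3 to 21.5, 57.7 to 78.7 and 82.1 to 117. SPRY1 made up 32.4% of the sum in empty vector, 9.25% with CIC::DUX4 and 8.47% with CIC::NUTM1, although its own level differed little. In the same order SPRY4 made up 0%, 11.3% and 14.7%, and SPRED3 1.78%, 9.42% and 5.23%. SPRED2 was at 22.6%, 31.1% and 29.2%, whereas SPRY2 was at 35.5%, 26.9% and 33.6%. These shares were not tested.

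**Figure D4:**
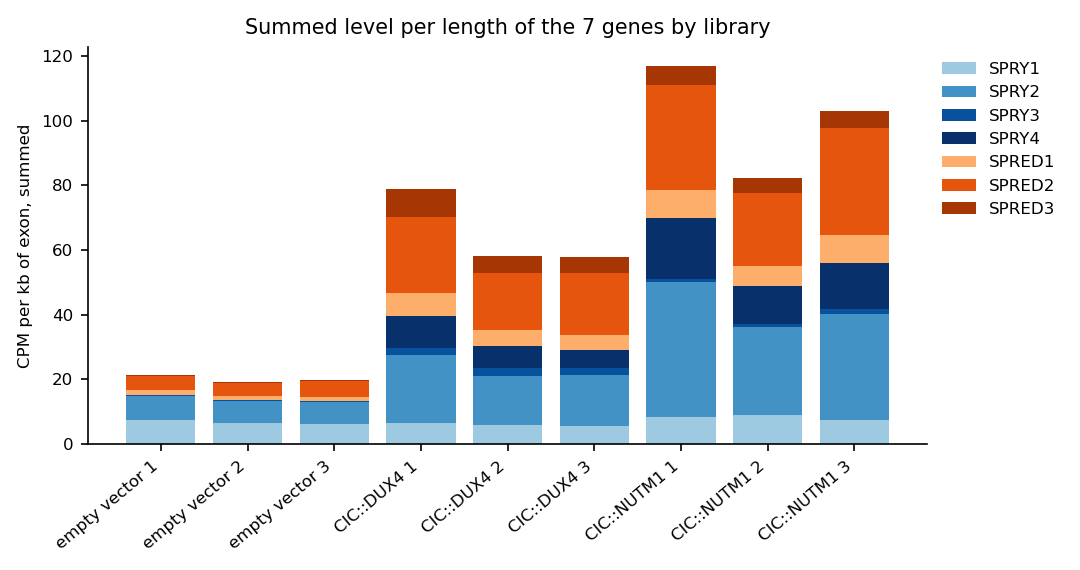
Bars give, for each of the 9 libraries, the sum of CPM per kb of exon over the 7 genes (vertical axis from 0), with Sprouty genes in blue and SPRED genes in orange. The bars run from 19.3 to 21.5 in empty vector and up to 117 with CIC::NUTM1, and the SPRY4 segment is present in the fusion libraries alone.

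The order of levels per length changed accordingly. With CIC::DUX4, SPRED2 (20.1 ± 3.0 CPM per kb) and SPRY2 (17.4 ± 3.2) led and overlapped. SPRY4 (7.39 ± 2.09), SPRED3 (6.21 ± 2.03), SPRY1 (5.92 ± 0.44) and SPRED1 (5.65 ± 1.38) followed with no gap between their libraries, and SPRY3 was last at 2.16 ± 0.20. With CIC::NUTM1, SPRY2 (33.9 ± 7.3) and SPRED2 (29.4 ± 6.0) led and overlapped, and SPRY4 stood alone in the third place at 14.8 ± 3.5. SPRY1 (8.29 ± 0.75) overlapped SPRED1 (7.86 ± 1.58), and SPRED3 (5.23 ± 0.69) and SPRY3 (1.11 ± 0.18) each lay apart below them. By its mean, SPRY4 thus went from the last place in empty vector to the third with each fusion. With CIC::DUX4 its libraries overlapped those of SPRED3, SPRY1 and SPRED1.

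The 7 genes were compared with the proteins they act on and with other regulators of the pathway. The partners, 23 genes for proteins that bind or modify Sprouty and SPRED proteins, included some called in each direction. With CIC::DUX4, 2 of 23 were called higher and 1 lower, next to 6.96% and 1.27% of all genes tested. With CIC::NUTM1, 5 were called higher and 3 lower, next to 11.5% and 3.83% of all genes. Their median log2 fold change was -0.05 in both comparisons. NF1, GRB2, CBL and PTPN11 were among those not called with either fusion.
CBLB, a ubiquitin ligase related to CBL, had a level of 13.4 ± 1.6 CPM in empty vector and of 30.2 ± 6.1 with CIC::DUX4 (log2 fold change 1.18 ± 0.14, adjusted p = 1.04e-06). With CIC::NUTM1 it stood at 18.8 ± 2.1 (0.49 ± 0.14, adjusted p = 0.0173), a call lost without empty vector replicate 3 (adjusted p = 0.124) or CIC::NUTM1 replicate 3 (0.121). Its difference between the fusions was called (-0.69 ± 0.14, adjusted p = 0.0017), as for SPRY3 with the higher level in CIC::DUX4.
DYRK1A, a kinase that phosphorylates Sprouty proteins, was higher with CIC::NUTM1, at 79.7 ± 3.2 CPM, than in empty vector (47.0 ± 3.6, adjusted p = 1.68e-07) or with CIC::DUX4 (55.4 ± 4.1, adjusted p = 0.00013). HRAS and FRS2 rose 1.21-fold and 1.29-fold with CIC::NUTM1, and HRAS was not called there under library totals or upper quartile factors. RASA1, KIT and CAV1 fell to 0.794, 0.773 and 0.704 of the empty vector mean with CIC::NUTM1, and CAV1 to 0.668 with CIC::DUX4. Each of these calls on HRAS, FRS2, RASA1, KIT and CAV1 was lost in 3 to 10 of 18 alternatives, with the lowest counts of alternatives for FRS2 and the highest for KIT.

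Of 20 other genes listed as regulators of receptor and ERK signalling, 19 were tested. Of these, 6 were called higher with CIC::DUX4 (6.96% of all genes), 9 with CIC::NUTM1 (11.5% of all genes) and none lower. DUSP6, the cytoplasmic ERK phosphatase, stood at 0.651 ± 0.552 CPM in empty vector, 31.0 ± 4.7 with CIC::DUX4 and 57.3 ± 17.6 with CIC::NUTM1. DUSP4, a nuclear ERK phosphatase, went from 6.62 ± 0.55 to 129 ± 26 and 120 ± 34 CPM. ERRFI1, an inhibitor of the EGF receptor, went from 33.2 ± 1.7 to 88.8 ± 16.1 and 145 ± 27 CPM.
DUSP7, PHLDA1 and TRIB1 rose by smaller folds, between 1.22 and 2.16 in the means; PHLDA1 was lost without CIC::DUX4 replicate 1 (adjusted p = 0.107) and, with CIC::NUTM1, in 4 of 18 alternatives, and TRIB1 with CIC::DUX4 in 3 of 18. LRIG3, FLRT3 and RASA2 were called with CIC::NUTM1 alone against empty vector, and the RASA2 call was lost in 7 of 18 alternatives: library totals, upper quartile factors, and leaving out any of 5 libraries in turn (adjusted p up to 0.148). The difference between the fusions was called for LRIG3 (0.98 ± 0.10, adjusted p = 1.15e-07), FLRT3 (1.41 ± 0.14, adjusted p = 1.71e-07) and ERRFI1 (0.70 ± 0.15, adjusted p = 0.0146), all higher with CIC::NUTM1. ERRFI1 lost that call in 3 of 18 alternatives. SOCS2, a cytokine feedback inhibitor, had 12.2 CPM in empty vector and 8.18 with CIC::NUTM1 (adjusted p = 0.0562), and was called lower under library totals, upper quartile factors and DESeq2.
For the 19 genes the median log2 fold change was 0.22 (CIC::DUX4) and 0.21 (CIC::NUTM1), beside 2.19 and 2.65 for the 7 Sprouty and SPRED genes.

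Of 6 genes that follow ERK or that CIC represses (the transcription factors ETV1, ETV4, ETV5, FOSL1 and EGR1 and the cyclin CCND1), 5 were called higher with CIC::DUX4 and 6 with CIC::NUTM1, with no gene lower. Of all genes, 6.96% and 11.5% were called higher. ETV4 and ETV5 were near 0 in empty vector, at 0.510 ± 0.101 and 0.811 ± 0.353 CPM, and reached 193 ± 35 and 247 ± 44 with CIC::DUX4 and 207 ± 50 and 272 ± 64 with CIC::NUTM1. Unlike SPRY4, both had reads in empty vector. ETV1, CCND1 and FOSL1 rose with each fusion and EGR1 with CIC::NUTM1 (0.95 ± 0.25, adjusted p = 0.0098). ETV1, CCND1, FOSL1 and EGR1 were called higher in the CIC::NUTM1 libraries than in those of CIC::DUX4, next to 4.97% of all genes. Leaving out 1 library gave 1 call (CIC::NUTM1 replicate 1 or CIC::DUX4 replicate 3) to 4. The FOSL1 difference was called in all 18 alternatives. ETV1 (0.83 ± 0.21, adjusted p = 0.0400) lost the call in 8, among them DESeq2 (0.0591), limma-trend (0.0594) and DESeq2 size factors (0.0506), CCND1 in 4 and EGR1 in 3, all 7 with a library left out. The EGR1 rise was lost without empty vector replicate 2 (adjusted p = 0.0612) or CIC::NUTM1 replicate 1 (0.0502).

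Over the 9 libraries, which fall into 3 groups that set most of any correlation, SPRED1 and SPRED2 followed each other most closely (Pearson r = 0.997 of log2 CPM). SPRY4 followed each SPRED gene at 0.987. SPRY1 had the weakest relations, from -0.107 with SPRY3 to 0.576 with SPRY2. Among 12120 genes with at least 100 counts on average in their highest group, those most like the mean pattern of the 7 were ETV1 (0.995), CNGB1 (0.994), KRT20 (0.993), AGR2 (0.992) and FOXC2 (0.992). The gene most like each of the 7 was EPS8L1 for SPRY1 (0.917), CHD5 for SPRY2 (0.992), SCNN1B for SPRY3 (0.993), ENSG00000206249 for SPRY4 (0.999), KITLG for SPRED1 (0.996), CNGB1 for SPRED2 (0.997) and ENPP2 for SPRED3 (0.996). SCNN1B, like SPRY3, was higher with CIC::DUX4 (13.6 CPM) than with CIC::NUTM1 (1.99 CPM) and near 0 in empty vector (0.0098 CPM).

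Genes near the 7 were examined after the levels were seen. Of 14 tested genes within 100 kb, 2 were called higher with CIC::DUX4, 4 with CIC::NUTM1 and none lower, next to 6.96% and 11.5% of all genes called higher. All but 1 of those called lay near SPRED3. GGN, a testis gene whose start lies 339 bases from that of SPRED3 on the opposite strand, had 3, 19 and 19 counts in empty vector, 196, 115 and 79 with CIC::DUX4 and 77, 53 and 88 with CIC::NUTM1. In CPM these were 0.172 to 0.761, 4.65 to 7.48 and 2.03 to 4.62, so that both fusions lay above empty vector. GGN rose by 3.48 ± 0.39 on the log2 scale with CIC::DUX4 (adjusted p = 8.48e-07) and 2.802 ± 0.396 with CIC::NUTM1 (adjusted p = 1.28e-05).
CATSPERG rose from 0.543 to 1.55 (adjusted p = 0.0377) and 1.40 CPM (adjusted p = 0.0472). RYR1 rose from 0.582 to 2.11 CPM with CIC::NUTM1 (adjusted p = 0.0038). With CIC::DUX4 it stood at 1.52 CPM, just short of a call (adjusted p = 0.0503), and the fusions did not differ (adjusted p = 0.624). PSMD8 and FAM98C, the next genes on the SPRED3 strand on each side, were not called, with log2 differences of 0.13 and -0.06 for CIC::DUX4. The fourth gene called with CIC::NUTM1 was ACTR2 near SPRED2, which went from 371 to 436 CPM. LINC02934, whose start lies 4074 bases from that of SPRED2 on the opposite strand, was not tested; it had 0 counts in empty vector, 3 to 24 with CIC::DUX4 and 2 to 8 with CIC::NUTM1.

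**Figure D5:**
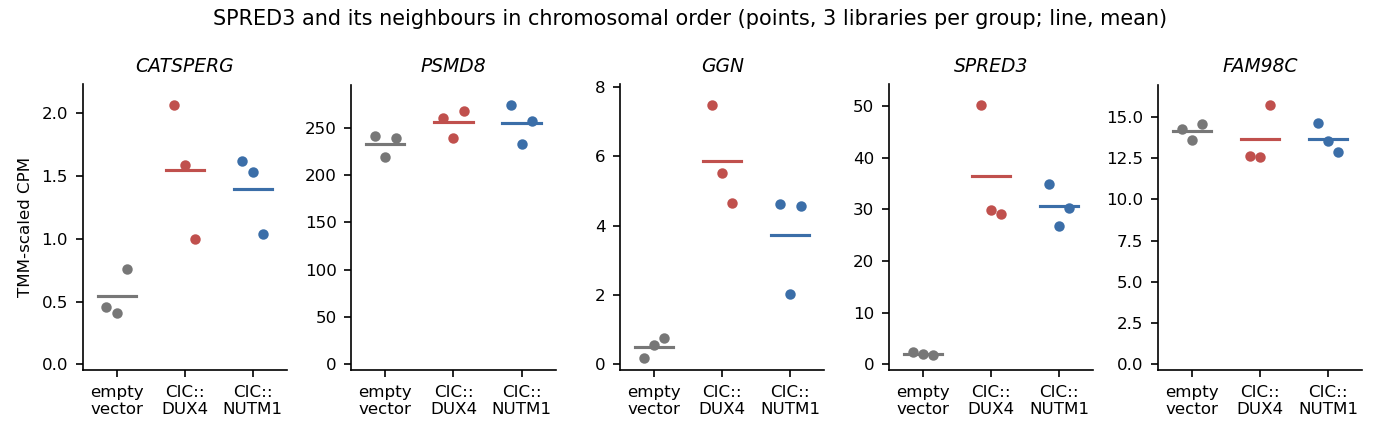
TMM-scaled CPM (vertical axes, linear, a scale for each gene) of SPRED3 and 4 nearby genes, drawn in chromosomal order, with a point for each of 3 libraries per group and a line at the mean. GGN and SPRED3 rise with both fusions, while PSMD8 and FAM98C keep overlapping groups.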

How the data were processed

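PolyA RNA of 293T cells was sequenced from directional libraries. Unnormalized gene counts by Ensembl ID were deposited, with a second table of log2 CPM for 15811 genes made by the authors. The submitters' processing notes name STAR 2.7.10b, R 4.2.2, edgeR 3.40.2 and GRCh38; annotation, counting program and strand setting are not given in the sources used here. The deposited log2 CPM values of the 15718 genes matched by symbol equalled values recomputed here from counts (TMM factors, prior count of 2) (largest difference 4.97e-14).

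Groups came from the sample titles. The test was the robust quasi-likelihood F test of edgeR 4.0.16 (R 4.3.3) with TMM factors, on the 17576 of 34765 detected genes that filterByExpr retained. A single fit took all 9 libraries with a mean for each group, with Benjamini-Hochberg adjustment over all genes tested and a threshold of 0.05. The common dispersion was 0.0102. Standard errors of log2 fold changes were taken from the F statistic (the change over the square root of F). SPRY4 folds against empty vector used 3 counts per library as the floor. Symbols matched 62622 of 62700 IDs, and positions, exons and neighbours are from GENCODE 29. Promoter windows are from RefSeq (GRCh38.p14). Likeness is the Pearson correlation of log2 CPM over 9 libraries.

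The 7 genes are named whatever their result, as are list genes that were called, genes overlapping a member, and the genes most like the mean (5) or each member (1). Other genes were named after their values were seen. The 7 genes, the lists and the tests were chosen with earlier results of these data known. The labels do not say which replicates share a day, so the replicate number is a block only in an alternative. The p-values measure the spread between these libraries, whose separate transfection days are stated in the labels' protocols. Alternatives covered scaling (library totals, upper quartile factors, DESeq2 size factors), filtering (none, or 10 or more counts in all libraries), the test (DESeq2 1.42.0, or limma-trend from limma 3.58.1 on the deposited log2 CPM), only the groups compared, the replicate block, each library left out, and a log2 change of at least 1. The fits were checked on simulated data. Figures were drawn with matplotlib 3.10.9. The values of 1 listed partner gene are not reported here, and the counts over the list include it.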

Additional observations from a re-analysis of the deposited data

How the results depend on the processing

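Against empty vector, SPRED1, SPRED2, SPRED3, SPRY2 and SPRY3 were called with both fusions in all 18 alternatives, and SPRY4 in the 17 that could test it, since at least 10 counts in every library removes it. Between the fusions 3 of 7 genes were called (2 higher with CIC::NUTM1), next to 4.97% of all genes called higher and 1.64% lower. The count was 5 (4 higher) with no filter, DESeq2 or limma-trend and 6 (5 higher) with the replicate block, which added SPRY4 (adjusted p = 7.33e-07), SPRED2 (0.00026) and SPRED1 (0.0134) and changed no count of these genes against empty vector. Over all genes, the deviations of same-numbered libraries from their group means correlated at -0.031 to 0.075, and not every library correlated best with its own number, so the numbers were not taken as pairs, although most of the 7 genes lay on the same side of the group mean in libraries numbered 1 and in those numbered 2. Leaving out 1 library gave 3 to 6 (2 to 5 higher). A log2 change of at least 1 left 0, with 0 higher and 0 lower. Shares of all genes called under the alternatives are not given here, so no count under an alternative is set against one. The SPRED3 difference between the fusions reversed to 0.052 without CIC::DUX4 replicate 1 and ran from -0.392 to 0.052 over libraries left out. The cause was not tested. With the length of the longest transcript, CPM per kb in empty vector was 1.33 for SPRED1, 5.71 for SPRED2, 0.442 for SPRED3, 9.91 for SPRY1 and 8.01 for SPRY2. With CIC::DUX4 it was 25.2 for SPRED2 and 8.99 for SPRY1, which then lay above SPRED3. With CIC::NUTM1 it was 37.0 for SPRED2, 6.42 for SPRED3 and 12.6 for SPRY1. Partners called higher with CIC::NUTM1 against empty vector were 3 under library totals and 3 under upper quartile factors, in place of 5. SOCS2 made 1 other regulator lower there under library totals, upper quartile factors, no filter, DESeq2 and the replicate block. With the replicate block the partners higher between fusions were 2. Of partners, a log2 change of at least 1 left 1 higher and 0 lower with CIC::DUX4 and 0 in either direction in the other comparisons. Of other regulators it left 5 higher with CIC::NUTM1 and 1 between the fusions. Of the 6 genes downstream of ERK or CIC it left 0 between the fusions. Over libraries left out, partners higher ran from 1 to 2 (CIC::DUX4), 1 to 5 (CIC::NUTM1) and 1 to 2 (between the fusions). Partners lower ran from 0 to 1 and 0 to 3 against empty vector, and other regulators lower with CIC::NUTM1 from 0 to 1. Genes downstream of ERK or CIC higher between the fusions ran from 1 to 4.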
